A study of Rattus norvegicus with 18 samples.

Results

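The comparison described here sets hepatocytes exposed to CDEB directly against hepatocytes exposed to CDMB, using 3 cultures of each, or 6 of the 18 samples of the series. The samples were chosen by their titles, CDEB replicates 1 to 3 and CDMB replicates 1 to 3. The series title places both compounds among the p-dialkoxy chlorobenzenes, and the labels give them only as codes. Both groups consisted of cryopreserved primary hepatocytes from male Sprague Dawley rats, held in culture for 24 h and then given the compound at 300 µM for 24 h, so dose, time and cells were matched. DMSO cultures (VC_1, 3 samples) and cultures given 300 µM DDMB (3 samples) lay on another slide and appear below only as levels. The design text calls the replicates independent experiments, and no label says which animals they came from. The p-values therefore cover only the variation among these cultures, which may be technical.

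Hepatocytes in culture take up and oxidise fatty acids, make bile acids from cholesterol, and fold large amounts of secreted protein in the endoplasmic reticulum. The nuclear receptor PPARalpha raises the rat Cyp4a omega-hydroxylases and the peroxisomal oxidation enzymes. When unfolded protein builds up in the endoplasmic reticulum, the transcription factors ATF6 and XBP1 raise chaperones such as Hspa5 (BiP) and the degradation factors that export misfolded protein, among them the derlin Derl3. Both factors act through promoter elements called ERSE and ERSE-II.

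All 6 arrays lay on 1 slide and had 1 scan. Spots well above background made up 61.4% to 62.3% of each CDEB array and 61.9% to 62.1% of each CDMB array, and no probe spot was saturated. The 75th percentile of signal, by which each array was scaled, ran from 459 to 482.08 on CDEB arrays and from 482.28 to 505 on CDMB arrays, so the groups did not overlap in brightness. CDEB arrays occupied columns 1 to 3 of row 1, whereas CDMB replicate 1 lay in column 4 of row 1 and the other CDMB arrays in row 2, so position on the slide moved with the compound. Quantile scaling and a fit with the row as a block were run as alternatives. Only CDMB replicate 1 shared a row with CDEB arrays. The row block therefore set the CDEB mean against that 1 culture, and its values below are differences from CDMB replicate 1 alone. They cannot separate position from that culture. Beyond quantile scaling, the part of brightness and position in the results was not tested. The median SD between replicates was 0.07 on the log2 scale for CDEB and 0.09 for CDMB, against 0.13 for DDMB and 0.14 for VC_1. Hepatocyte markers were strong in both groups. Their summed linear level was 2681 to 2958 times the 75th percentile in CDEB cultures and 2708 to 2861 times in CDMB cultures, and none of the 10 markers separated the groups. Albumin differed by 0.08 on the log2 scale (95% interval -0.06 to 0.22).

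The test covered 20605 genes, of which 10484 had a plain symbol. The rest, listed under other identifiers, were counted as 1 gene each, so a gene may be counted more than once. Of the 20605, 2 passed limma's test at an adjusted p below 0.05, a share of 0.00971%. Derl3 fell under CDEB relative to CDMB, and a transcript with no gene symbol rose (0.00485% of genes in each direction). The transcript passed the filter on dim probes only through its CDEB arrays, so its place in this count of 2 is no independent support for a difference. Values below are log2 signal relative to the 75th percentile of the array, and a difference is CDEB minus CDMB. Derl3 stood at 2.02, 2.12 and 2.07 in CDEB cultures and at 3.01, 3.03 and 2.91 in CDMB cultures. All CDEB cultures thus lay below all CDMB cultures. The difference was -0.91 ± 0.06 (SE, n = 3 per group), a 1.88-fold lower signal with CDEB (limma, adjusted p = 0.0420). A second Derl3 probe gave a difference of -1.18. In VC_1 cultures Derl3 stood at 2.91, 2.70 and 1.13, and in DDMB cultures it ran from 1.02 to 2.88, so cultures within a single group on the other slide spread further than the gap between the compounds. The call rests on all 6 cultures: without any one of them the difference stayed between -0.95 and -0.89, with adjusted p from 0.0696 to 0.162. With the slide row as a block Derl3 differed by -0.94 (adjusted p = 0.0922), and with replicate number as a block its adjusted p was 0.201.

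The unnamed transcript was well above background on all 3 CDEB arrays and on 0 CDMB arrays. Its measured signal was -4.47, -4.38 and -4.38 in CDEB cultures and -5.49, -5.72 and -5.48 in CDMB cultures. The measured difference was 1.16 (limma, adjusted p = 0.0420). With the deposited background subtraction the rise was at least 1.85-fold, a bound that was not itself tested. This bound sets the CDEB mean against the dimmest signal that counted as above background, or the probe's own signal where that was higher. With 1 culture left out its adjusted p ran from 0.0318 to 0.172. It was 0.0922 with the slide row as a block, 0.201 with replicate number as a block and 0.689 with the normexp background, where the measured difference was 0.44 in place of 1.16.

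The threshold fell just below a tie. The next 22 genes shared an adjusted p of 0.0505, 62 genes lay below 0.06 and 141 below 0.1, of which 78 were higher and 63 lower with CDEB. At an unadjusted p below 0.05 there were 2809 genes (13.6%), 1525 higher (7.4%) and 1284 lower (6.23%). In 4163 genes (20.2%) the 3 CDEB and 3 CDMB arrays did not overlap, with 10.4% of genes higher and 9.75% lower in CDEB, and this is the background for the counts given below. When the variance prior was allowed to follow signal strength, 321 genes (1.56%) passed, 196 higher (0.951%) and 125 lower (0.607%). Differences were small. The median absolute difference was 0.07 on the log2 scale, and 40 genes differed by at least 2-fold. The genes named from here on, other than Derl3, did not pass the test and are given as values.

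**Figure D1:**
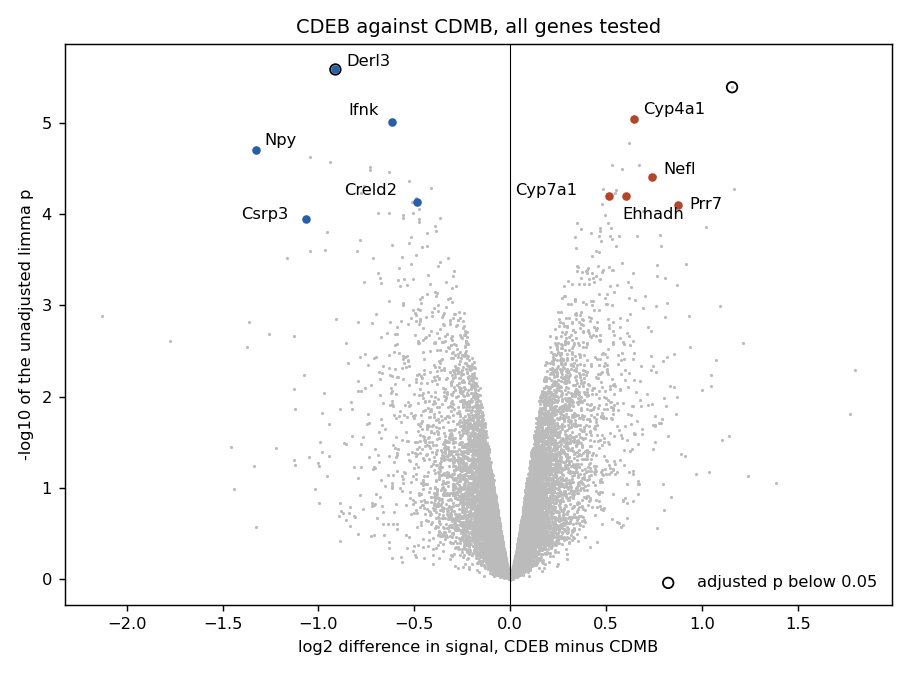
Log2 difference in signal (CDEB minus CDMB, x axis) against -log10 of the unadjusted limma p (y axis) for 20605 genes. Circles mark the 2 genes with an adjusted p below 0.05, Derl3 on the lower side and a transcript with no symbol on the higher side, and 10 named genes are coloured.

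Among genes with a plain symbol and no overlap, the 10 with the lowest unadjusted p were named on the higher side. Better-ranked genes without a plain symbol were passed over. Of these 10, 3 enzymes are described first. Cyp4a1, a fatty acid omega-hydroxylase and a classic PPARalpha target in rat liver, was at 3.61, 3.62 and 3.65 in CDEB cultures and at 3.01, 2.92 and 3.02 in CDMB cultures. The groups did not overlap, and the difference was 0.64 ± 0.05 (SE), or 1.56-fold (limma, adjusted p = 0.0505). VC_1 cultures held Cyp4a1 at 2.82, 2.81 and 2.89, below every CDMB culture. DDMB cultures ran from 2.53 to 3.32, a wider spread than the difference between the compounds. Ehhadh, the peroxisomal bifunctional enzyme, was at 0.12, 0.19 and 0.25 with CDEB and at -0.34, -0.51 and -0.41 with CDMB. Its difference was 0.61 ± 0.06 (adjusted p = 0.0507), and VC_1 cultures lay from -0.38 to -0.27, at or above the upper part of the CDMB range. Cyp7a1, the rate-limiting enzyme of bile acid synthesis, was at -0.31, -0.28 and -0.39 with CDEB and at -0.88, -0.88 and -0.78 with CDMB, a difference of 0.52 ± 0.06 (adjusted p = 0.0507). VC_1 cultures were lower and wide, at -1.09, -1.36 and -3.18.

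The other genes of the 10 named on the higher side have varied roles. Prr7, a proline-rich membrane protein, differed by 0.88. Nefl, the neurofilament light chain, differed by 0.74 and Pxdn, a peroxidase that crosslinks basement membrane collagen, by 0.62. Dusp13a, a phosphatase, differed by 0.58, Stc1 (the secreted glycoprotein stanniocalcin) by 0.54, Bco1, which cleaves beta-carotene, by 0.53, and the matrix protein Vwa1 by 0.48. Their adjusted p-values ran from 0.0505 to 0.0533 in limma. Vwa1 was measured at 2.58, 2.56 and 2.47 with CDEB and at 2.03, 2.10 and 2.05 with CDMB. Its VC_1 cultures ran from 0.53 to 1.86, a wider spread than its difference. Nefl was at -3.46, -3.52 and -3.53 with CDEB and at -4.36, -4.11 and -4.26 with CDMB. For Nefl, VC_1 cultures lay above both compounds, at -2.66, -2.38 and -1.85. Nefm, the medium chain, was well above background on 3 CDEB arrays and on 1 CDMB array. It was measured at -4.18, -4.08 and -3.76 with CDEB and at -5.57, -5.09 and -4.50 with CDMB.

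On the lower side, Npy, which encodes the peptide neuropeptide Y, had the largest difference of the 10 named genes. It was at 3.24, 3.13 and 2.83 in CDEB cultures and at 4.49, 4.41 and 4.28 in CDMB cultures, a difference of -1.33 ± 0.12 (SE; 2.51-fold lower; limma, adjusted p = 0.0505). VC_1 cultures were at 3.30, 2.23 and -1.77 and DDMB cultures ran from -0.52 to 5.42, so Npy spread by far more between cultures of those groups than between the 2 compounds. Csrp3, a muscle LIM protein, was at -2.35, -2.15 and -2.26 with CDEB and at -0.96, -1.18 and -1.43 with CDMB. Its difference was -1.06 ± 0.13 (adjusted p = 0.0555), and VC_1 cultures spread further, at -1.67, -1.87 and -3.70. Ifnk, a type I interferon, differed by -0.62 ± 0.05 with almost no spread in CDEB cultures (-2.43, -2.40 and -2.41 with CDEB; -1.86, -1.77 and -1.77 with CDMB). Il1r2, the decoy receptor for interleukin-1, differed by -0.56, Aspg, an asparaginase, by -0.56, Col5a3 by -0.52, the membrane trafficking protein Praf2 by -0.46 and Doc2a, a calcium sensor of vesicle release, by -0.39. VC_1 cultures ran from 3.10 to 4.18 for Il1r2 and from -0.32 to 0.84 for Aspg, also wider than the difference between the compounds.

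**Figure D2:**
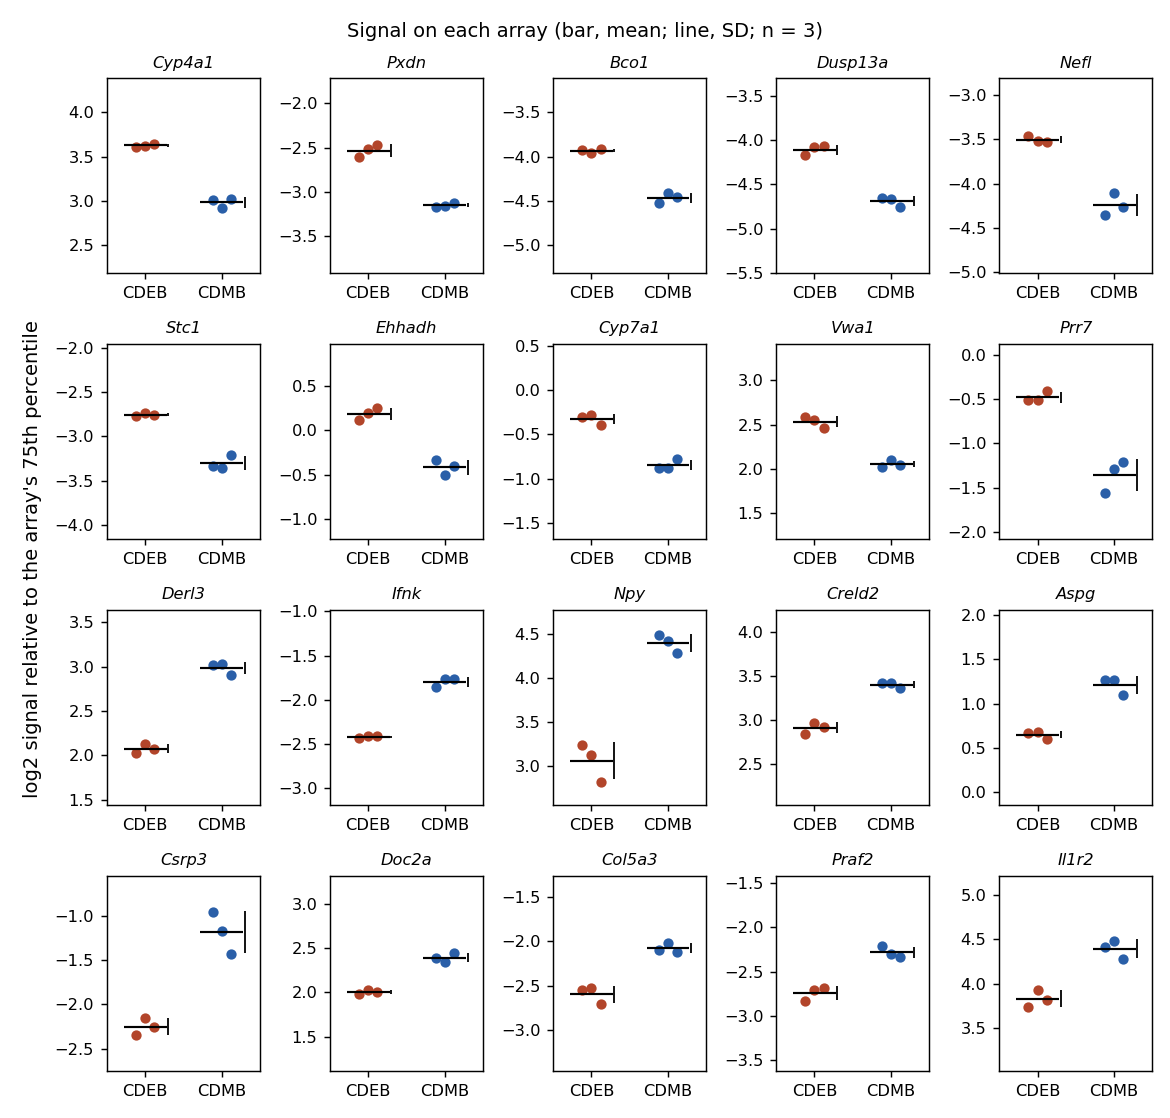
Log2 signal relative to the array's 75th percentile for 20 named genes, CDEB left and CDMB right, 1 point per array, with the mean as a bar and the SD as a vertical line (n = 3 each). Every panel spans the same log2 range. In each gene the 3 CDEB arrays lie entirely above (upper 10 panels) or below (lower 10 panels) the 3 CDMB arrays, which the choice of these genes required.

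Derl3 was accompanied by other genes of protein folding. Of 29 genes of the endoplasmic reticulum list, 28 were tested. In 12 of them (42.9%) all CDEB arrays lay below all CDMB arrays, against 9.75% of all genes, and in 0 did they lie above. Derl3 was the only member to pass limma's test. The list's median difference was -0.07 (-0.13 with the slide row as a block and -0.046 without CDMB replicate 1), against 0.00 over all genes, and 21 of the 28 differences were negative. Creld2, an endoplasmic reticulum protein induced by misfolding, was at 2.85, 2.97 and 2.93 with CDEB and at 3.42, 3.42 and 3.36 with CDMB, a difference of -0.49 ± 0.05 (adjusted p = 0.0525). For Creld2, VC_1 cultures were at 3.28, 3.11 and 2.52 and DDMB cultures ran from 2.50 to 3.38, each a wider spread than this difference. The disulfide isomerase Pdia4 differed by -0.25, and the BiP co-factors Sdf2l1 and Dnajb11 by -0.23 and -0.20. These, with Derl3 and Creld2, were the 5 members that passed with the signal-dependent prior. Sdf2l1 was at 3.49, 3.53 and 3.52 with CDEB and at 3.72, 3.73 and 3.77 with CDMB. Calr (calreticulin) differed by -0.17. Hspa5 itself was at 7.21, 7.26 and 7.23 with CDEB and at 7.46, 7.30 and 7.39 with CDMB, a difference of -0.15 (95% interval -0.29 to -0.01). Hsp90b1, Hyou1, Sel1l, Dnajc3 and Pdia6 differed by -0.15 to -0.10 with no overlap between the groups. Xbp1 differed by -0.01 (-0.14 to 0.12), and the mRNA of Atf6 and Canx overlapped between the groups. These further members were singled out after their values were seen. Ddit3 (CHOP), a stress transcription factor on the list of the integrated stress response, was at 2.93, 2.96 and 3.02 with CDEB and at 3.51, 3.74 and 3.25 with CDMB, a difference of -0.53 (-0.83 to -0.24; adjusted p = 0.164). Atf4 differed by -0.01 (-0.12 to 0.11) and Atf3 by 0.03 (-0.10 to 0.16). That list had 5 of 29 members higher and 3 lower with no overlap (17.2% and 10.3%, against 10.4% and 9.75% of all genes). Of its differences, 21 were positive, with a median of 0.035. The 1 member that passed with the signal-dependent prior was higher with CDEB.

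**Figure D3:**
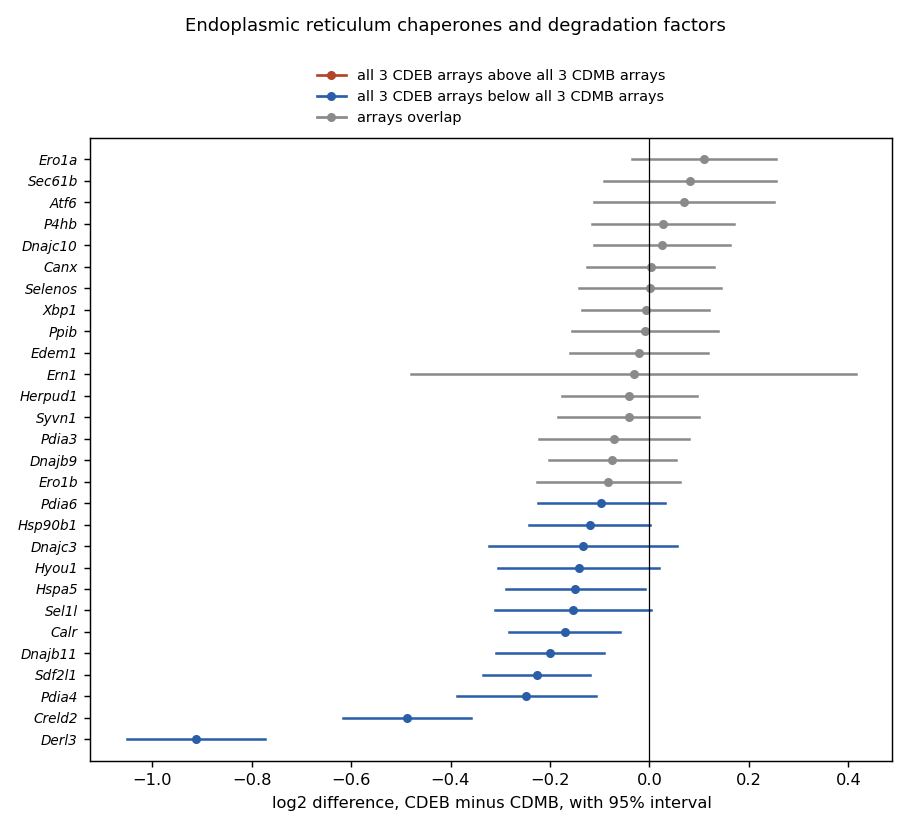
Log2 difference, CDEB minus CDMB (x axis), with its 95% interval for the 28 tested genes of the endoplasmic reticulum list, ordered by difference. Blue marks the 12 genes whose 3 CDEB arrays all lay below the 3 CDMB arrays, and grey the genes whose arrays overlapped. Derl3 and Creld2 lie apart from the other members.

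The promoters of 4 of these genes are shown because they carry the elements through which ATF6 and XBP1 act. Each runs from 250 bases before to 50 bases after the gene's start in the RefSeq annotation of GRCr8, and capitals mark the ERSE (CCAAT and CCACG with 9 bases of any kind between) or, in Dnajb11, the ERSE-II (ATTGG and CCACG with 1 base between), searched on both strands.
Derl3, chr20:12766416-12766715, minus strand: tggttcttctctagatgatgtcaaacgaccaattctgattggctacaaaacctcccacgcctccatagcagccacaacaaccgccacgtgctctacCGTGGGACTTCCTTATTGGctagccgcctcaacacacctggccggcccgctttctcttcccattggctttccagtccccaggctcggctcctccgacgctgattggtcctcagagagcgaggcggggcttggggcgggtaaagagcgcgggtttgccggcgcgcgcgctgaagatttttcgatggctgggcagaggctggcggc
Creld2, chr7:121789134-121789433, plus strand: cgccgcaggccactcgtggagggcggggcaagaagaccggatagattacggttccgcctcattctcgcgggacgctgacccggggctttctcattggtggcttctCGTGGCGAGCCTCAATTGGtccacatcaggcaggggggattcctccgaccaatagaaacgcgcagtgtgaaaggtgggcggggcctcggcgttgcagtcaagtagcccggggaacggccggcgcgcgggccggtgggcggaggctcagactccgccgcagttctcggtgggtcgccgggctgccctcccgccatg
Dnajb11, chr11:91672751-91673050, minus strand: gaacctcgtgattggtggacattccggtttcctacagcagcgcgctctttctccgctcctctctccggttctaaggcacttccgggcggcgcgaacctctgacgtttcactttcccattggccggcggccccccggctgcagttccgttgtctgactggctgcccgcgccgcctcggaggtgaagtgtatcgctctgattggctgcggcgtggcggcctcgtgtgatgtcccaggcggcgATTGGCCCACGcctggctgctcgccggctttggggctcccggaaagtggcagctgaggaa
Hspa5, chr3:38452766-38453065, plus strand: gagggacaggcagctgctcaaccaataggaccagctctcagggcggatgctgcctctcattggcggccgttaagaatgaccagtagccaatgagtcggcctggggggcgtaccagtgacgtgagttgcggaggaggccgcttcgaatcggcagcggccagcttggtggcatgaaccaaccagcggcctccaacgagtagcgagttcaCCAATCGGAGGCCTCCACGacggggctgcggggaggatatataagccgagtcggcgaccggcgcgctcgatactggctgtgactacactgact
ERSE was found in 22 of 33469 promoters of this length (0.0657%), ERSE-II in 17 (0.0508%) and either in 39 (0.117%). Of the 28 tested list members, 23 matched a promoter by symbol and 12 of these held an element. Of the 11 with a promoter whose CDEB arrays lay below CDMB, 8 held one (Derl3, Creld2, Dnajb11, Calr, Hspa5, Hsp90b1, Hyou1 and Dnajc3), and of the 12 whose arrays overlapped, 4 did (Xbp1, Canx, Ero1b and Herpud1). The list was drawn from known genes of this pathway, and a match describes these letters in this window. Binding was not measured.

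In the lists of fatty acid oxidation, more members lay above CDMB than below it. Among PPARalpha targets of omega-hydroxylation and lipid handling, 7 of 23 members were higher with CDEB without overlap (30.4%, against 10.4% of all genes). Without overlap 2 were lower (8.70%, against 9.75%). With 0 passing the test, the median was 0.10 (0.056 with the slide row as a block and 0.057 without CDMB replicate 2). Besides Cyp4a1, Cyp4a3 was at 4.72, 4.66 and 4.70 with CDEB and at 4.38, 4.21 and 4.31 with CDMB, a difference of 0.39 ± 0.06 (limma, adjusted p = 0.0850). Ucp2, a mitochondrial carrier, differed by 0.50, the fatty acid receptor Cd36 by 0.32, Vnn1 (pantetheinase) by 0.29 and Angptl4, an inhibitor of lipoprotein lipase, by 0.25. Cyp4a8 ran opposite, at -0.18. Cyp4a2 overlapped between groups (0.33, interval -0.22 to 0.88, and -0.19 with the slide row as a block). Cross-hybridisation between the closely related Cyp4a genes was not tested. Cyp4b1, a related enzyme, was at -4.03, -4.13 and -4.08 with CDEB and at -4.06, -4.20 and -3.93 with CDMB, a difference of -0.01 (-0.20 to 0.18).

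Of 25 peroxisomal oxidation genes, 7 were higher and 4 lower without overlap (28% and 16%, against 10.4% and 9.75% of all genes). With 0 passing the test, the median was 0.05 (-0.0078 with the slide row as a block and -0.0024 without CDMB replicate 2). Behind Ehhadh, Decr2 differed by 0.26 and the thiolases Acaa1a and Acaa1b by 0.22 each. Acox2, the oxidase for bile acid precursors, was at 2.61, 2.63 and 2.67 with CDEB and at 2.94, 2.74 and 2.91 with CDMB, and differed by -0.23. The list thus held enzymes on either side. Mitochondrial oxidation showed 7 of 22 members higher and 1 lower without overlap (31.8% and 4.55%, against the same shares of all genes). The median was 0.05 (0.0086 with the slide row as a block, 0.0039 with the normexp background, 0.028 without CDMB replicate 2 and 0.073 without CDMB replicate 1). Acaa2, a thiolase of this pathway, was at 4.48, 4.35 and 4.35 with CDEB and at 4.13, 4.06 and 4.11 with CDMB (0.29, adjusted p = 0.139). Hadh differed by 0.25 and Eci1 by 0.23, whereas Cpt1a, the entry step, differed by -0.08 (-0.25 to 0.09). Among 17 genes of thioesterases, ketogenesis and fuel switch, 7 were higher without overlap (41.2%, against 10.4% of all genes). In this list 1 was lower (5.88%, against 9.75%), 0 passed the test and the median was 0.05. Bdh1, which makes beta-hydroxybutyrate, was at 1.14, 0.95 and 0.95 with CDEB and at 0.44, 0.66 and 0.33 with CDMB. Its difference was 0.53 (limma, adjusted p = 0.127), and VC_1 cultures ran from -0.97 to 0.67, a wider spread. The thioesterase Acot1 differed by -0.34.

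**Figure D4:**
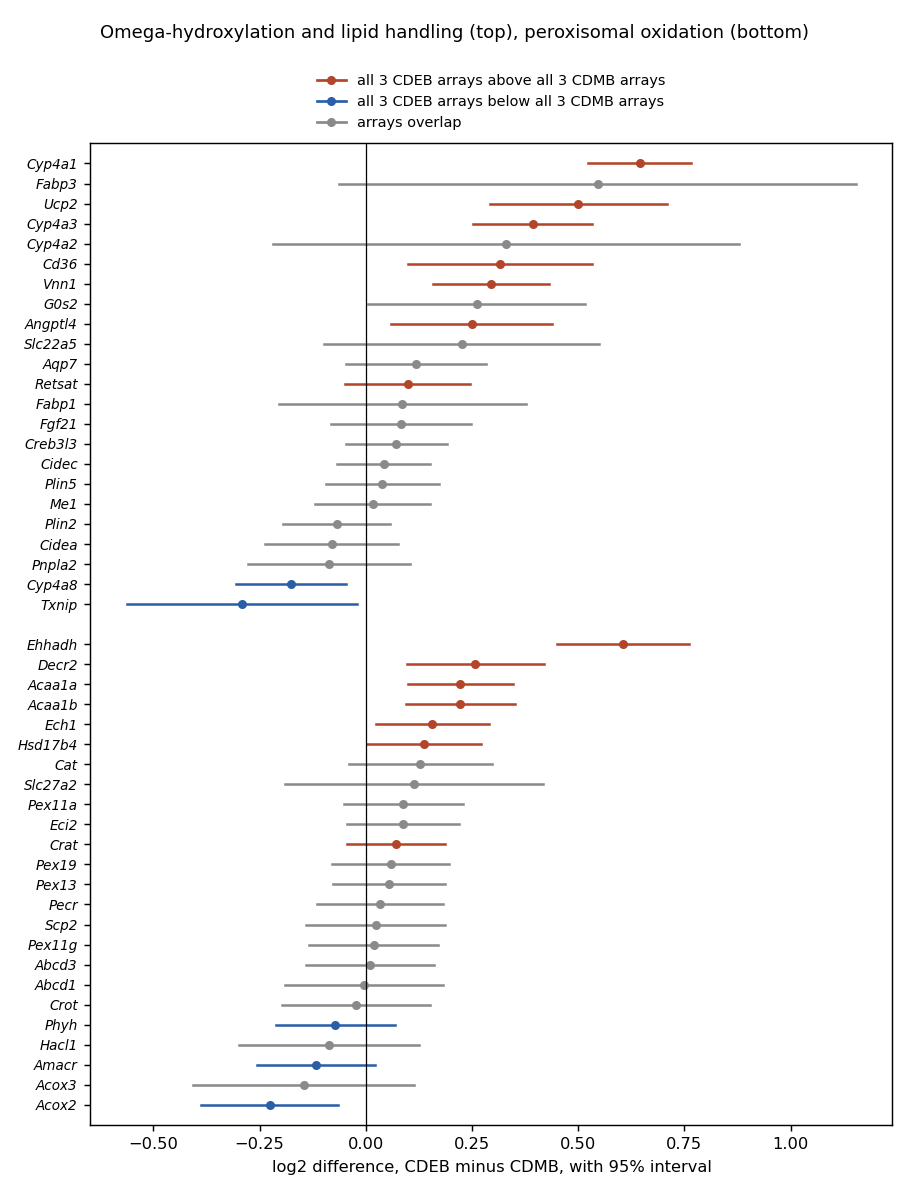
Log2 difference, CDEB minus CDMB (x axis), with its 95% interval for 23 tested genes of omega-hydroxylation and lipid handling (top block) and 24 of the 25 of peroxisomal oxidation (bottom block). Red marks genes whose 3 CDEB arrays all lay above the CDMB arrays, blue those below and grey those that overlapped. Cyp4a1 and Ehhadh head their blocks, and Acox2 is the lowest of the peroxisomal genes.

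Among 24 genes of fatty acid and triglyceride synthesis, 2 were higher without overlap (8.33%, against 10.4% of all genes) and 5 lower (20.8%, against 9.75%). Scd, the stearoyl-CoA desaturase, was at 6.98, 6.95 and 6.91 with CDEB and at 6.60, 6.58 and 6.62 with CDMB, a difference of 0.35 ± 0.05 (limma, adjusted p = 0.0671). VC_1 cultures lay below both, at 6.46, 6.46 and 6.25. Srebf1, which encodes the lipogenic factor SREBP1, differed by 0.36, Fasn by -0.02 (-0.22 to 0.18) and the phosphatidate phosphatase Lpin1 by -0.23. Cholesterol synthesis genes lay lower with CDEB without overlap in 6 of 25 (24%, against 9.75% of all genes) and higher in 0. Their median was -0.14 (-0.060 without CDMB replicate 1), with 21 negative differences. Msmo1, a sterol oxidase of the pathway, was at 5.47, 5.48 and 5.29 with CDEB and at 6.00, 5.78 and 5.64 with CDMB (-0.39, adjusted p = 0.206). Lss, the cyclase that forms lanosterol, differed by -0.22 (-0.40 to -0.04). None of these genes passed the test. In the bile acid list, 4 of 21 were higher and 5 lower without overlap (19.0% and 23.8%, against 10.4% and 9.75% of all genes). Cyp7b1, of the alternative pathway, differed by 0.60 (0.25 to 0.95) and Akr1c14, a hydroxysteroid dehydrogenase, by -0.23. The sterol exporter subunit Abcg5 differed by -0.35 (-0.69 to -0.02).

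In the list of matrix genes, integrins and keratins, 29 of 34 differences were positive. In 16 (47.1%, against 10.4% of all genes) the CDEB arrays all lay above, in 0 below, and the median was 0.13 (0.21 with the slide row as a block). None passed the test. Col5a3, a collagen outside this list, went the other way without overlap (-0.52). Tagln, an actin-binding protein of smooth muscle and activated stellate cells, was at 3.16, 3.13 and 3.25 with CDEB and at 2.00, 2.51 and 2.43 with CDMB, a difference of 0.87 ± 0.14 (limma, adjusted p = 0.0910). In VC_1 cultures it was at 2.76, 2.98 and 3.43, above all CDMB cultures and around those with CDEB. Ogn, a small proteoglycan, differed by 0.76, Col4a1 by 0.51, Lamb3 by 0.45 and Col3a1 by 0.45. Markers of stellate cells and fibroblasts moved with this result. Of 12 such markers 8 were tested, and 8 had a positive difference. In 6 (Tagln, Col3a1, Reln, Acta2, Col1a2 and Pdgfrb) the CDEB arrays all lay above (75%, against 10.4% of all genes). The summed linear level of the tested markers was 10.3 to 10.9 with CDEB and 5.19 to 6.81 with CDMB, most of it Tagln. Col1a1, Lrat, Lum and Pdgfra were not among the genes tested. Several of these markers are also members of the matrix list, and their part in its result was not tested. In whole cultures, more cells of a type and more RNA per cell cannot be told apart. Endothelial markers, 4 of 11 tested, summed to 10.5 to 11.6 with CDEB and 9.49 to 9.63 with CDMB, most of it Vwf. Vwf differed by 0.18 (limma, adjusted p = 0.251). The median difference of the 4 markers was 0.23 (0.086 with the slide row as a block). Bile duct, lymphocyte and erythroid sums overlapped. Macrophage markers (4 of 12 tested) summed to 12.76 to 13.49 with CDEB and 13.47 to 14.55 with CDMB, so these sums overlapped too.

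In the list of glycolysis and the hypoxia response, 12 of 34 were higher and 4 lower without overlap (35.3% and 11.8%, against 10.4% and 9.75% of all genes). The median was 0.08, and differences ran from -0.55 to 0.40. Slc16a3, the lactate exporter MCT4, was at 4.28, 4.27 and 4.12 with CDEB and at 3.70, 3.96 and 3.84 with CDMB. Its difference was 0.40 (limma, adjusted p = 0.148), and VC_1 cultures ran from 0.65 to 3.78, a wider spread. The phosphofructokinase Pfkp differed by 0.32, the hypoxia-responsive Ndrg1 by 0.25 and Pfkfb1, the liver isoform of the bifunctional regulator of glycolysis, by -0.20. Among heat shock chaperones, 2 of 23 were higher and 6 lower without overlap (8.70% and 26.1%, against the same shares of all genes). The small chaperone Hspb1 was at 4.17, 4.16 and 4.25 with CDEB and at 4.47, 4.61 and 4.66 with CDMB, a difference of -0.39 ± 0.06 (adjusted p = 0.109). VC_1 cultures were lower than both, from 3.64 to 4.01.

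For xenobiotic and stress genes the intervals give how far the compounds could differ. Cyp3a23-3a1, a target of the pregnane X receptor PXR, differed by 0.04 (-0.17 to 0.24), Cyp2c11, the male-specific P450, by 0.16 (-0.12 to 0.44), Cyp1a1 by -0.05 (-0.25 to 0.14) and Cyp1a2 by 0.05 (-0.07 to 0.17), the last pair being targets of the aryl hydrocarbon receptor AhR. Among targets of NRF2, the oxidative stress factor, Nqo1 differed by -0.06 (-0.23 to 0.11), Gclc by -0.03 (-0.16 to 0.11) and Hmox1 by 0.16 (-0.03 to 0.34). The p53 targets Cdkn1a and Mdm2 differed by 0.04 (-0.11 to 0.19) and -0.03 (-0.14 to 0.08). Aldh3a1 differed by 0.28 (0.01 to 0.56). That these intervals span 0, all but that of Aldh3a1, does not show that the compounds act alike. No AhR target of 11 separated the groups without overlap, against 20.2% of all genes that did. In the list of CAR and PXR targets, 4 of 32 were higher and 6 lower without overlap (12.5% and 18.75%, against 10.4% and 9.75% of all genes). Aldh1a1 (retinal dehydrogenase) was at 6.46, 6.52 and 6.54 with CDEB and at 6.15, 6.05 and 5.97 with CDMB (0.45, limma, adjusted p = 0.0692). The efflux pump Abcb1b differed by 0.29. Aldh1a1 was highest in VC_1, at 6.59, 6.67 and 7.07.

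Of the remaining genes named by rule, Sstr3, a somatostatin receptor, was at 0.61, 0.58 and 0.60 with CDEB and at -0.02, 0.31 and 0.17 with CDMB (0.45, limma, adjusted p = 0.136). Colq, the collagen tail of acetylcholinesterase, differed by 0.38, the gluconeogenic Pck1 by 0.39 and the chemokine Cxcl12 by 0.27 (0.16 to 0.38). The smallest p in each other list belonged to Gsta1 (0.20), Gstz1 (0.27), Perp (0.15), Vldlr (0.29), Socs3 (0.24), Thra (0.28), Slc30a10 (0.25), Gmnn (-0.15), Cry2 (-0.19), Uqcrq (0.14) and F2 (0.09), in log2 difference. In the marker lists it belonged to Alb, Tagln, Vwf (0.18), Clec4f (0.67), Krt7 (-0.44), Nkg7 (-0.20) and Ahsp (0.16). Clec4f was well above background on 3 CDEB and 2 CDMB arrays, and Krt7 on 2 CDEB and 3 CDMB arrays. Each thus passed the filter on dim probes only through its brighter group. Their arrays overlapped, and their values are no independent support for a difference. Respiratory chain genes, 1 of 46 higher and 3 lower, and plasma protein and hepatocyte identity genes, 1 of 32 higher and 1 lower, lay under the background share in both directions.

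**Figure D5:**
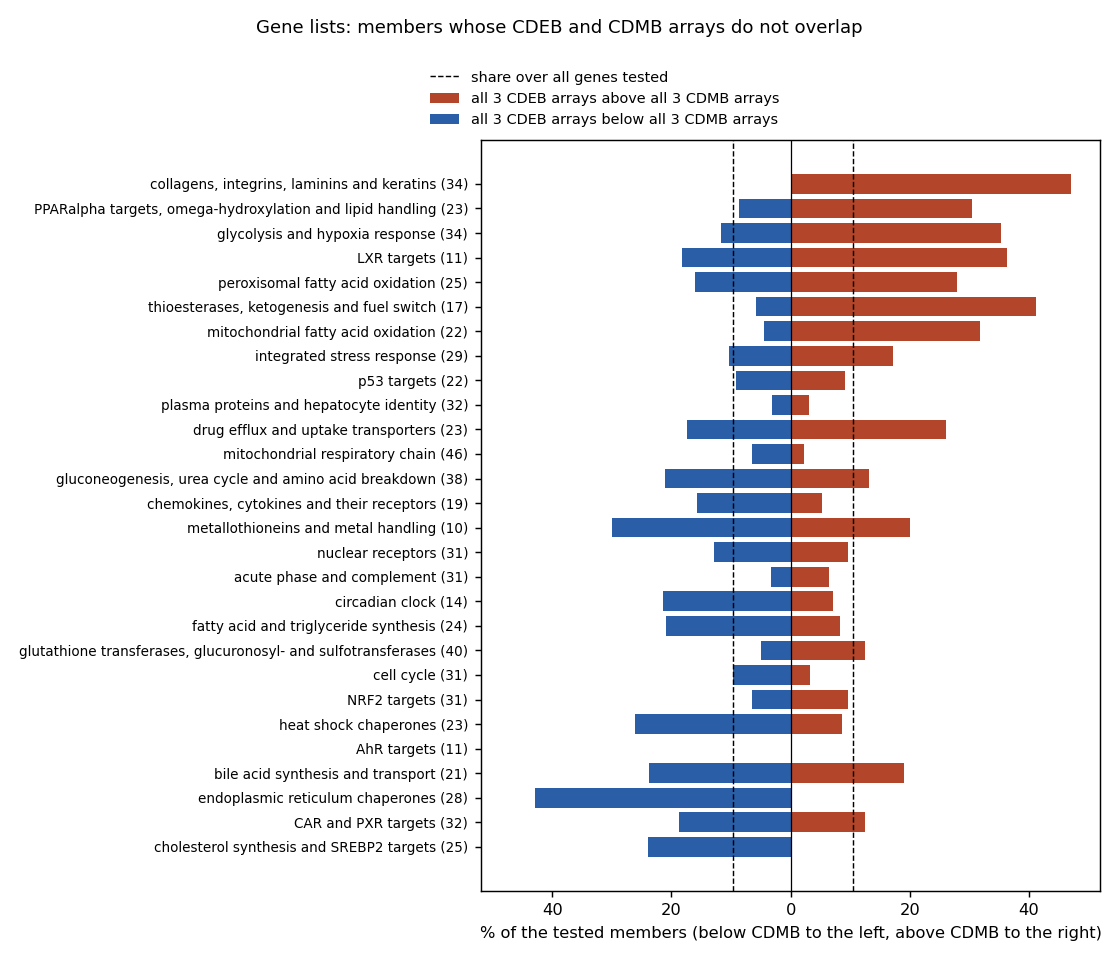
Share of the tested members of 28 gene lists (number tested in brackets) whose 3 CDEB arrays all lay above (right, red) or all below (left, blue) the 3 CDMB arrays, with the shares over all genes as dashed lines (10.4% above, 9.75% below). Lists are ordered by median difference, with matrix genes at the top and cholesterol synthesis at the bottom.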

How the data were processed

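Signal was measured on 1-colour Agilent arrays (Cy3). Spot intensity was read with Feature Extraction 10.7.1.1, per the file headers, and the deposited processed intensity is background-subtracted. The authors' deposited table of the VC_1 lot holds normalized signal on a linear scale, with no scaling named by any source used here. For probes with a value over 1, it was on each array a constant times the values used here (100% of 11408 to 11412 probes within 1%). The constant was taken for each array by itself, and dimmer probes were not compared. The table served as an alternative. The other deposited signal table was not used here.

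The log2 intensity was averaged over a probe's unflagged spots, and the array's log2 75th percentile was subtracted. Probes were kept if well above background on all 3 arrays of CDEB or CDMB (24236 of 45598; 17 left out as flagged), and the brightest kept probe stood for a gene. Accessions named 21109 probes (16581 genes) through RefSeq's GRCr8 table. The headers name build rn4, and no rn4 coordinates are given. A model of the 6 arrays was fitted by lmFit and eBayes of limma 3.58.1 under R 4.3.3 (4 residual and 2.29 prior degrees of freedom) with Benjamini-Hochberg adjustment over 20605 genes. The number of arrays limits the precision.

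The members, the 35 gene lists and the tests were chosen with earlier results of these data known. Named genes are those called or, to fill 10 in each direction, those with non-overlapping arrays in order of unadjusted p. This step took only genes with a plain symbol. Then came each list's called members or its smallest p, and a set of 25 genes given whatever their value. Other list members were picked after their values were seen. The alternatives were another background, scaling, dim-probe filter, value table, set of arrays, variance prior, block by replicate number or slide row, and leaving out each array. The files lack the mean-signal column that had been planned for the normexp background, so the median signal was used (offset 50). Some list members are counted in their lists but not reported by name here.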

Additional observations from a re-analysis of the deposited data

How the results depend on the processing

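The number of genes called depends on the processing. Against 2, there were 0 with the normexp background, 0 with no filter on dim probes, 0 with all 18 arrays or the 12 arrays of the lot in 1 fit, 0 with the replicate block, 1 with the slide row block, 21 in the authors' table, 33 with quantile normalization, 59 with probes above background on all 6 arrays and 321 with the signal-dependent robust prior. Leaving out 1 array gave 0 to 4 (4 without CDMB replicate 2, Derl3 not among them). Testing each probe by itself gave 2. Derl3 was called in the authors' table, with each probe by itself, the stricter filter, quantile normalization and the signal-dependent prior. Its adjusted p was 0.107 with the normexp background, 0.246 with no filter, 0.864 in the 12-array fit and 1.00 in the 18-array fit. Where limma called 0 genes, an unadjusted p below 0.05 was reached by 1467 of 20605 genes with the normexp background, 2790 of 39493 with no filter, 962 with 18 arrays, 1296 with 12 arrays, 2891 with the replicate block and 2005 to 2853 with 1 array left out, against 2809 in the 6-array fit. The share of genes with arrays not overlapping was 17.1% with the normexp background, 21.0% with quantile normalization and 12.6% with no filter, and 26.7% to 33.5% with 1 array left out, where fewer arrays must separate.

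Deviations from the group means correlated by 0.03, -0.22 and 0.08 between CDEB and CDMB cultures of the same replicate number. Between different numbers the correlations ran from -0.21 to 0.19. With 3 arrays per group, these values cannot show whether replicate numbers pair the cultures. Some genes changed sign. With the normexp background Krt7 was 0.14 in place of -0.44, Nkg7 0.18 in place of -0.20, Cyp3a23-3a1 -0.0079, Cdkn1a -0.0100, Atf3 -0.022 and Cyp4b1 0.21, and Cyp4b1 was 0.032 with quantile normalization. With the row block Cyp3a23-3a1 was -0.11 and Cyp2c11 -0.050 in place of 0.16. With 1 array left out the ranges were -0.046 to 0.11 for Cyp3a23-3a1, -0.0091 to 0.089 for Cdkn1a, -0.051 to 0.0044 for Gclc, -0.011 to 0.049 for Atf3, -0.10 to 0.0079 for Nqo1 and -0.083 to 0.054 for Cyp4b1. The other genes named by rule kept their direction in every alternative that gave a value.

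Of 595 list medians recomputed, 13 moved by more than the spread between arrays. With the row block these were peroxisomal oxidation (-0.0078), conjugation enzymes (-0.11), endoplasmic reticulum chaperones (-0.13), cell cycle (-0.16), matrix genes (0.21) and the integrated stress response (0.0080). With the normexp background they were the integrated stress response (-0.0050), heat shock chaperones (-0.072), metallothioneins (-0.044) and bile duct markers (0.070). Metallothioneins gave 0.039 with each probe by itself. With 1 array left out, thioesterases and ketogenesis ran from 0.026 to 0.082 and chemokines from -0.14 to 0.045. The cause of these changes was not tested, and the row block values compare CDEB with CDMB replicate 1 alone.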
